A study of Mus musculus with 10 samples.

Results

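Gastrokines and trefoil factors are 2 small families of secreted proteins of the stomach lining, and 6 of the 55276 genes in the deposited table belong to them by gene symbol: Gkn1, Gkn2, Gkn3, Tff1, Tff2 and Tff3. Their RNA was measured in epithelial cells sorted from the corpus, the part of the stomach that secretes acid. The donors were C57BL/6 mice of 6 to 8 weeks. All mice carried the Iqgap3-2A-tdTomato reporter, in which the red protein tdTomato is made together with the scaffold protein Iqgap3, and were either wild type for Runx3 (WT) or carried the R122C change in this Runt-family transcription factor. The labels do not say whether the change was carried on both alleles. Living EpCAM+ cells were split by the reporter: IQ3pos cells carried tdTomato and were high in Iqgap3, and IQ3neg cells lacked tdTomato and were low or negative for Iqgap3. There were 3 libraries each of WT IQ3pos and WT IQ3neg and 2 each of R122C IQ3pos and R122C IQ3neg. Each library was a pool of 3 mice, or of 4 in both WT replicate 2 libraries, so every p-value reflects how far pools differ, not single mice.

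Surface pit cells, which line the stomach and its pits with mucus, are known to secrete gastrokines 1 and 2 with the mucin Muc5ac and the trefoil factor Tff1. Mucous neck cells, deeper in the corpus gland, are known for Tff2, the mucin Muc6 and, in mice, Gkn3. Trefoil factors are short cysteine-rich peptides that take part in mucus structure and in the repair of the epithelium, and Tff3 is best known from goblet cells of the intestine. Gastrokines carry a BRICHOS domain, and Gkn2 and Tff1 are known to form a disulphide-linked pair.

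On GRCm38, the build named by the submitters, the families lie in a tight cluster each. Gkn1 (87345650 to 87350942, minus strand), Gkn2 (87373357 to 87379497, plus strand) and Gkn3 (87383256 to 87388935, minus strand) lie within 43286 bases of chromosome 6. Tff3 (31125306 to 31129646), Tff2 (31141049 to 31144282) and Tff1 (31161395 to 31165277) lie within 39972 bases of chromosome 17, all on the minus strand. The 250 bases before the RefSeq start sites of the gastrokine genes (build GRCm38.p6) are shown because Gkn1 and Gkn2 moved together across the libraries while Gkn3, their neighbour, did not. They are written 5′ to 3′ along each gene, with matches in capitals.
Gkn1 (chr6:87350916-87351165, minus strand): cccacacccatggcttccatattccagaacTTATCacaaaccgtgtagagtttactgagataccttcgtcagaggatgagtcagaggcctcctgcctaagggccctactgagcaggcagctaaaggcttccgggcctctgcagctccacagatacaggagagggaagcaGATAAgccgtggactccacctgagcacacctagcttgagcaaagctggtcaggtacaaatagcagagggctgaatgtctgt
Gkn2 (chr6:87373115-87373364, plus strand): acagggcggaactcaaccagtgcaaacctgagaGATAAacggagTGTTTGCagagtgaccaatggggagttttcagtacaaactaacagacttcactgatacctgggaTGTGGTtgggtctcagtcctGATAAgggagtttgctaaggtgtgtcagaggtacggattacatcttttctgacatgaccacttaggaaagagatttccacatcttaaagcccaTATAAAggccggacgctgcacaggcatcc
Gkn3 (chr6:87388936-87389185, minus strand): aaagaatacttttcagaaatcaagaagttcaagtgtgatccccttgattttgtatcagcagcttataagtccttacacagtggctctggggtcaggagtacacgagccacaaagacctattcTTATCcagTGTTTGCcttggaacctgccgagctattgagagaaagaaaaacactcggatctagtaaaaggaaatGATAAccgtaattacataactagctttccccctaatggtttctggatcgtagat
Capitals mark 4 motifs, searched on both strands. The first is the GATA-factor motif, GATAA. The FOXA motif was taken as TGTTTNC and the RUNX motif as ACCACA. The last is the box TATAAA found before many start sites. No 2 matches overlap. Each gastrokine window held GATAA 2 times, and 22.6% of the 32851 mouse promoter windows of this length held it at least once. TGTTTNC was in the Gkn2 and Gkn3 windows and in 17.8% of all windows. ACCACA was in the Gkn2 window alone of the 3, as its reverse complement, and in 14.05% of all windows. TATAAA was also in the Gkn2 window alone of the 3, and in 12.4% of all windows. These matches describe letters and not binding.

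All 6 genes were tested, that is, above the listed 0 in at least 2 libraries, as were 17155 genes in all. Levels are log2 CPM, the reads of a gene scaled to library size, and a gene below 1 CPM is listed at 0. The totals that the CPM were scaled to ran from 47.4 M to 265 M reads. The epithelial marker Epcam stood between 7.64 and 9.25 log2 CPM in all 10 libraries, while the 5 fibroblast markers summed to at most 27.5 CPM and the 5 immune markers to at most 362 CPM. The genes of the pancreatic acinar list took 32.2% of the listed CPM in WT IQ3neg replicate 1. They took 9.32% to 13.0% in the other IQ3neg libraries and 0.324% to 2.91% in IQ3pos. Nearly all of it was Clps. Of the same list, Cel, Try4 and Ptf1a reached 10.74, 8.91 and 6.90 log2 CPM. Cpa1 was listed at 0 in every library. Cpb1, Pnlip, Ctrb1, Prss1 and Amy2a5 were at most 0.69, 2.13, 2.65, 2.97 and 3.24. Which cells the Clps reads came from was not tested. WT IQ3neg replicate 1 was also the lowest library of all for Gkn1, Gkn2, Gkn3, Tff1 and Tff2. The same held for each of the 4 defining epithelial markers, Epcam, Krt8, Krt18 and Cdh1. These markers summed to 1187 CPM in that library and to 3057 to 5184 CPM in the others. The part of the acinar list's share in the results was not tested beyond the rescaling given in the closing section. In sorted bulk RNA, fewer cells of a type and less RNA per cell cannot be told apart.

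In the deposited values of WT mice, Gkn1, Gkn2 and Tff1 were about 5 times as abundant in IQ3pos as in IQ3neg. Tff3 was far lower in IQ3pos. The size of these differences depended on the scaling of libraries and on single libraries. Centring each library on its median moved WT IQ3neg replicates 1, 2 and 3 by 1.03, -0.10 and -0.04 log2 units. It moved WT IQ3pos replicates 1, 2 and 3 by -0.08, -0.28 and -0.29. Together these shifts narrow the differences of Gkn1, Gkn2 and Tff1. With 1 library left out at a time, the log2 difference ran from 1.83 to 2.82 for Gkn1, 1.79 to 2.96 for Gkn2 and 1.92 to 2.78 for Tff1. Gkn3 did not separate the fractions. Of the 6 genes, 4 passed the test between the fractions (adjusted p under 0.05, limma over all genes), 3 higher and 1 lower, where 2.03% of all genes passed, 0.606% higher and 1.42% lower. With genes above the listed 0 in at least 1 library, with only the libraries of the 2 groups, with no intensity trend or without both WT replicate 1 libraries, Tff3 alone of the 6 passed. The 2 groups did not overlap for 5 of the 6, Gkn3 being the exception, and for 21.3% of all genes.

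Gkn1 stood at 12.32, 12.19 and 12.72 log2 CPM in the WT IQ3pos libraries and at 9.18, 10.005 and 11.16 in WT IQ3neg. Every IQ3pos library was above every IQ3neg library, and the IQ3neg libraries were the more widely spread. The log2 difference was 2.29 ± 0.499 (SE), a 4.90-fold higher level (adjusted p = 0.0389).

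Gkn2, whose protein pairs with Tff1, stood at 11.58, 11.73 and 12.42 in WT IQ3pos, against 8.28, 9.63 and 10.61 in WT IQ3neg. The groups did not overlap, and replicate 1 was again the lowest of IQ3neg. The difference was 2.41 ± 0.538 (5.31-fold, adjusted p = 0.043).

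Tff1, the trefoil factor of pit cells, was even across the WT IQ3pos libraries, at 12.05, 12.17 and 12.12, and stood at 8.82, 9.85 and 10.54 in WT IQ3neg. The groups were 1.51 log2 units apart at their nearest libraries. The difference was 2.38 ± 0.521 (5.19-fold, adjusted p = 0.0402). An antisense gene, Gm15318 (31152752 to 31163054, plus strand), shares 221 of the 703 exon bases of Tff1, or 31.4%, and was listed at 94.0% to 98.1% of the CPM of Tff1 in every library. The sources used here do not give strandedness, and reads of the pair cannot be told apart.

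Tff2, the trefoil factor of mucous neck cells, stood at 11.99, 12.37 and 12.28 in WT IQ3pos, against 8.66, 9.83 and 11.08 in WT IQ3neg. The groups did not overlap, but the IQ3neg libraries spanned 2 log2 units and more. The difference of 2.36 ± 0.597 was as large as that of the other genes and did not pass (adjusted p = 0.0668). With the replicate number as a block, an alternative given in the closing section, it did pass.

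Tff3 ran the other way and at a far lower level. The WT IQ3pos libraries held 2.27 and 0.64, with replicate 2 listed at 0, against 5.34, 5.56 and 6.03 in WT IQ3neg. Every IQ3neg library was at least 3.07 log2 units above every IQ3pos library. With the listed 0 kept at 0, the difference was -4.67 ± 0.790 (adjusted p = 0.014), a size that depends on this floor. The 4 IQ3pos libraries of either genotype that listed Tff3 held 229 to 567 reads of it. The intestinal goblet markers, which name the cell type Tff3 is best known from, summed to 2.58 to 93.8 CPM over the 10 libraries, and none of the 5 tested passed. The enteroendocrine markers summed to 12116 to 20093 CPM in WT IQ3neg and 212 to 499 CPM in WT IQ3pos, and their part in the Tff3 result was not tested.

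Gkn3 had no fraction difference beyond its spread. It stood at 9.06, 11.37 and 9.59 in WT IQ3pos, against 8.93, 10.67 and 11.49 in WT IQ3neg. The ranges overlapped almost wholly (difference -0.35, 95% interval -1.88 to 1.17, adjusted p = 0.819). It was the gene with the widest spread within WT IQ3pos, at 1.21 log2 units (SD, n = 3).

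These WT calls rested on few libraries. Leaving out 1 library at a time, Gkn1 still passed without WT IQ3neg replicate 3 (adjusted p = 0.0202), R122C IQ3neg replicate 1 (0.046) or R122C IQ3neg replicate 2 (0.0494), and had adjusted p = 0.051 to 0.145 without any of the other 7. Tff1 passed without the same 3 libraries and otherwise had adjusted p = 0.0605 to 0.130. Gkn2 passed only without WT IQ3neg replicate 3 (adjusted p = 0.0229), as did Tff2 (0.0274), and otherwise Gkn2 reached 0.155. Tff3 failed only without WT IQ3neg replicate 2 (adjusted p = 0.0646).

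**Figure D1:**
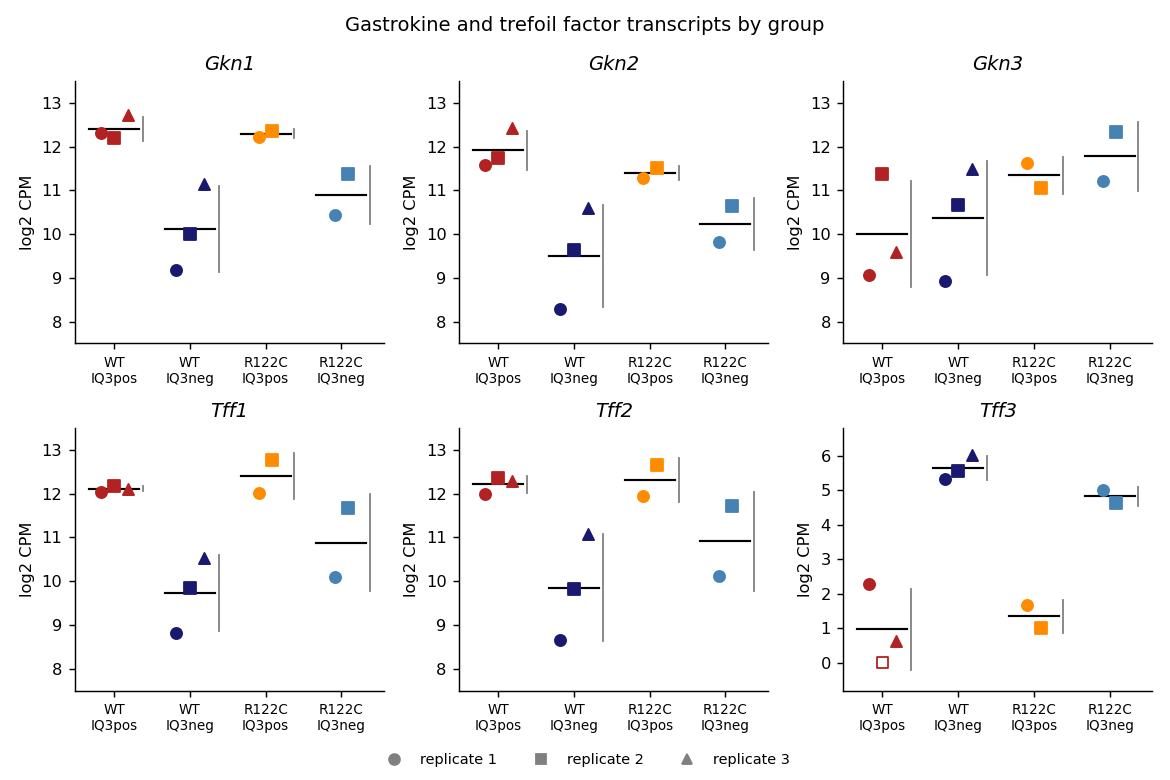
Level (log2 CPM, deposited values) of each of the 6 genes by group. Points are libraries, with the marker shape giving the replicate number, horizontal lines are group means, grey bars are 1 SD either side (n = 3 in WT, n = 2 in R122C), and the open marker is a listed 0. The Tff3 axis starts lower than the others. Gkn1, Gkn2, Tff1 and Tff2 lie higher in IQ3pos, Tff3 lies lower, and Gkn3 overlaps.

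In R122C mice the same 5 genes lay in the same directions without overlap, as 36.3% of all genes lay without overlap in 1 direction or the other, at smaller differences. None passed the test, where 0.321% of all genes passed, 0.0291% higher and 0.291% lower. At an unadjusted p under 0.05 there were 3 of the 6, namely Gkn1, Tff1 and Tff3, and 1389 of all genes. Gkn1 stood at 12.22 and 12.37 log2 CPM in R122C IQ3pos and at 10.44 and 11.37 in R122C IQ3neg, a difference of 1.39 ± 0.611 (adjusted p = 0.585 by limma). Gkn2 stood at 11.28 and 11.52 against 9.82 and 10.65, a difference of 1.17 ± 0.658 (adjusted p = 0.716). For both gastrokines, R122C IQ3neg replicate 1 was the lower of its group.

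Tff1 stood at 12.02 and 12.77 in R122C IQ3pos against 10.09 and 11.67 in R122C IQ3neg (difference 1.52 ± 0.638, adjusted p = 0.546 by limma). Tff2 stood at 11.95 and 12.66 against 10.12 and 11.71 (difference 1.39 ± 0.732, adjusted p = 0.688). Replicate 2 was the higher library of each group for both. Tff3 stood at 1.68 and 1.01 in R122C IQ3pos against 5.02 and 4.64 in R122C IQ3neg (difference -3.48 ± 0.968, adjusted p = 0.234). The groups were 2.95 log2 units apart at their nearest. Gkn3 stood at 11.63 and 11.05 against 11.22 and 12.34, which overlap (difference -0.44, 95% interval -2.30 to 1.43, adjusted p = 0.964). The fraction difference was not shown to differ between genotypes for any of the 6: no interaction passed for any gene tested (0% of 17155, and 444 at an unadjusted p under 0.05), and among the 6 it ran from -1.24 for Gkn2 to 1.19 for Tff3.

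Averaged over the genotypes, 5 IQ3pos libraries against 5 IQ3neg libraries, 5 of the 6 passed, 4 higher and 1 lower, where 4.24% of all genes passed, 1.67% higher and 2.57% lower. Tff1 was higher by 1.95 ± 0.411 (adjusted p = 0.0226) and Tff2 by 1.87 ± 0.472 (adjusted p = 0.0466). Gkn1 was higher by 1.84 ± 0.394 (adjusted p = 0.0238) and Gkn2 by 1.79 ± 0.425 (adjusted p = 0.0363). Tff3 was lower, at -4.08 ± 0.625 (adjusted p = 0.00434), and Gkn3 did not pass (-0.40 ± 0.553, adjusted p = 0.725). With genes above the listed 0 in at least 1 library or with no intensity trend, Tff3 alone of the 6 passed. This average uses the libraries of the comparisons above, so it is not separate evidence. Without 1 library at a time Tff3 passed in 10 of 10 fits, Gkn1 and Tff1 in 4 each, Tff2 in 3 and Gkn2 in 2. The 4 genes all passed without WT IQ3neg replicate 1 or replicate 3, and without R122C IQ3neg replicate 1 their adjusted p rose to 0.120 for Gkn1, 0.172 for Gkn2, 0.113 for Tff1 and 0.215 for Tff2.

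Each IQ3pos library can also be set against the IQ3neg library of its genotype with the same title code, a code that the labels do not explain. In WT the Gkn1 differences were 3.14, 2.19 and 1.56 for replicates 1, 2 and 3, and in R122C 1.78 and 0.99 for replicates 1 and 2. Tff1 differed by 3.23, 2.32 and 1.58 in WT and by 1.93 and 1.10 in R122C. Gkn1, Gkn2, Tff1 and Tff2 were higher in IQ3pos in 5 of 5 such pairs, and Tff3 was lower in 5 of 5. For these 5 genes the fractions did not overlap in either genotype, so the signs were already set. They add no support to the values above. Gkn3 was higher in 3 pairs and lower in 2, from 0.70 in WT replicate 2 to -1.89 in WT replicate 3.

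**Figure D2:**
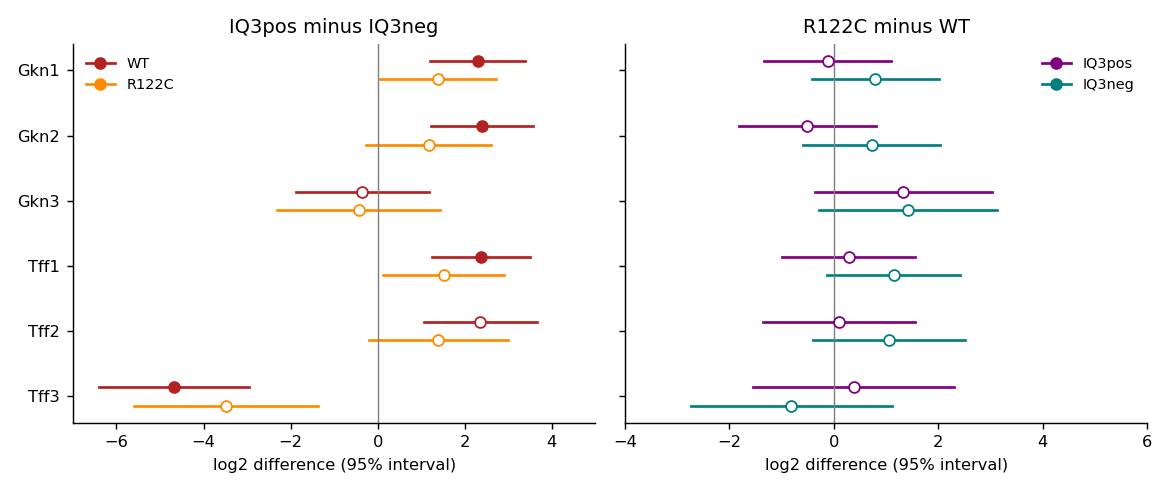
Log2 differences of the 6 genes between fractions (left, by genotype) and between genotypes (right, by fraction), with 95% intervals from limma. Filled points passed an adjusted p of 0.05. Only WT Gkn1, Gkn2, Tff1 and Tff3 are filled, and every interval on the right includes 0.

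Between the genotypes none of the 6 passed in IQ3pos or in IQ3neg, where 0% of all genes passed (930 and 629 at an unadjusted p under 0.05, none of them among the 6). In IQ3pos, R122C minus WT was -0.12 for Gkn1 (95% interval -1.33 to 1.10), 0.28 for Tff1 (-0.98 to 1.55) and 0.09 for Tff2 (-1.36 to 1.55). Gkn2 was -0.51 (-1.82 to 0.80), with both R122C libraries below all 3 WT libraries by at least 0.06. It was the only 1 of the 6 without overlap here, beside 15.5% of all genes. These intervals leave room for changes of over 1 log2 unit in either direction for Gkn1, Tff2 and Tff3, the last at 0.38 (-1.55 to 2.30).

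Gkn3 had the largest genotype differences of the 6 in both fractions. R122C minus WT was 1.33 in IQ3pos (95% interval -0.37 to 3.04, adjusted p = 0.938) and 1.42 in IQ3neg (-0.29 to 3.12, not passing). The groups overlapped in both, and within the only title code found in both genotypes (WT replicate 2 and R122C replicate 1) the differences were 0.27 and 0.55. In IQ3neg the other differences were 0.79 for Gkn1, 0.73 for Gkn2, 1.14 for Tff1 and 1.06 for Tff2, all with overlapping groups. Tff3 was lower in both R122C IQ3neg libraries than in all WT IQ3neg libraries, at a difference of -0.82 (95% interval -2.74 to 1.11). It was the only 1 of the 6 without overlap in IQ3neg, beside 13.6% of all genes.

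Ratios between members within a library do not depend on scaling between libraries. The ratios of Gkn2 to Gkn1, Tff1 to Gkn1 and Tff2 to Tff1 were not shown to differ between the fractions, at log2 differences of -0.05, 0.11 and -0.07 (exact permutation p = 0.65, 0.567 and 0.583, two-sided, libraries permuted within genotype). In the 10 libraries Tff2 to Tff1 ran from -0.16 to 0.54, Gkn2 to Gkn1 from -0.93 to -0.29 and Tff1 to Gkn1 from -0.62 to 0.40, with the R122C replicate 2 libraries the highest for the last.

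The ratio of Gkn3 to Tff2 was different. It stood at -2.92, -1.0005 and -2.69 in WT IQ3pos, against 0.28, 0.84 and 0.40 in WT IQ3neg. In R122C it stood at -0.32 and -1.62 in IQ3pos and at 1.10 and 0.62 in IQ3neg. All 5 IQ3pos libraries lay below all 5 IQ3neg libraries, by 2.27 log2 units on average (exact permutation p = 0.0167, the smallest the 120 arrangements can give). The adjusted p over the 5 ratios was 0.0417 by the same exact test. This adjusted value leans on the ratio of Tff3 to Tff1, which had the same p and had to separate the fractions. It is therefore not counted as a pass. Tff2 and Gkn3 are both known from mucous neck cells in mice, and here Tff2 followed Tff1 and Gkn1 instead.

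Tff3 to Tff1 ran from -12.17 to -9.78 in IQ3pos and from -7.03 to -3.48 in IQ3neg, with the lowest value resting on the listed 0 of Tff3. Tff3 was lower and Tff1 higher in IQ3pos without overlap in each genotype, so this ratio had to separate the fractions. It is no evidence beyond the values above.

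**Figure D3:**
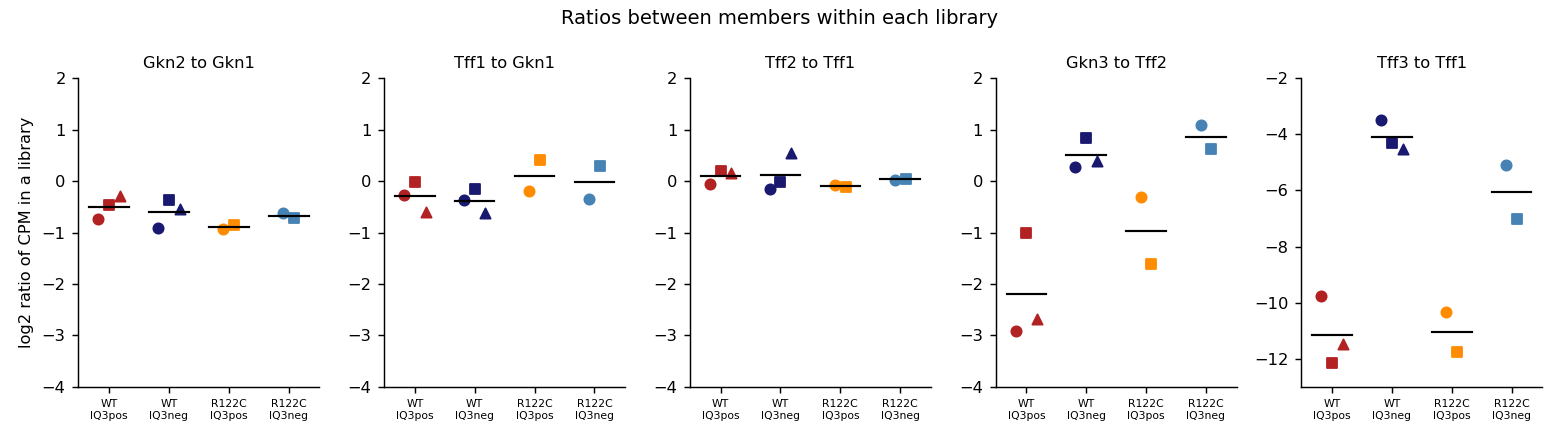
Log2 ratio of the CPM of 2 members in each library, by group, with group means as lines and marker shape giving the replicate number. The last panel has its own axis. The first 3 ratios overlap between fractions, while Gkn3 to Tff2 and Tff3 to Tff1 do not.

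Levels of different genes were compared per length, as log2 CPM per kb of exon. This scaling takes reads to lie evenly along the exons, which was not tested. Gm15318 shares 31.4% of the exon bases of Tff1 but was listed at 94.0% to 98.1% of its CPM. The place of Tff1 in the order per length is therefore unsure. The order also depends on the scaling: before it, Gkn1 had the higher mean in WT IQ3pos, at 12.41 log2 CPM beside 11.91 for Gkn2. In WT IQ3pos the order of means was Tff2 at 12.99, Tff1 at 12.62, Gkn2 at 12.26, Gkn1 at 12.09 and Gkn3 at 10.23, with Tff3 last. The ranges of Tff2 (12.76 to 13.14) and Tff1 (12.56 to 12.68) did not overlap, while the ranges of Gkn2 (11.92 to 12.77) and Gkn1 (11.87 to 12.39) overlapped. In WT IQ3neg, Tff2 (10.63 ± 1.22, SD, n = 3) and Gkn3 (10.59 ± 1.30) stood at like means. Tff1 (10.25 ± 0.868), Gkn2 (9.85 ± 1.17) and Gkn1 (9.79 ± 0.992) followed. These SDs are between libraries and do not measure how far genes differ within a library. Tff2 and Tff1 were above Gkn1 in each WT IQ3neg library, while the order of Tff2 and Gkn3 changed between libraries. In R122C IQ3neg, Gkn3 had the highest mean of the 6, at 12.00 ± 0.794 (SD, n = 2) beside 11.69 ± 1.13 for Tff2. Gkn3 was above Tff2 in both libraries, at 11.44 beside 10.89 and at 12.56 beside 12.49. Levels of different genes were not tested against each other. The 6 genes together took 1.62% to 2.13% of the listed CPM in WT IQ3pos, 0.219% to 0.998% in WT IQ3neg, 1.76% to 2.26% in R122C IQ3pos and 0.663% to 1.54% in R122C IQ3neg.

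**Figure D4:**
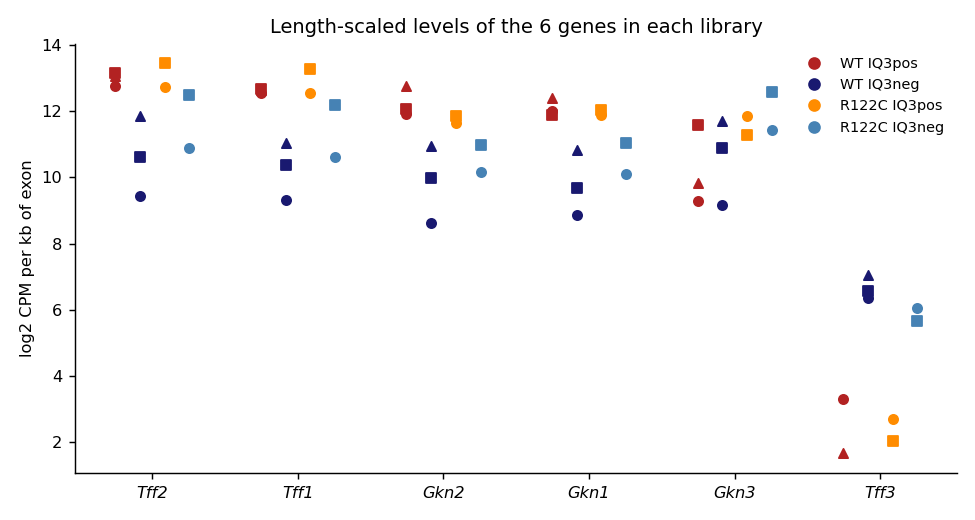
Level per exon length (log2 CPM per kb) of each gene in each library, coloured by group, with marker shape giving the replicate number. The library with a listed 0 for Tff3 is not drawn. Gkn3 lies below the other 4 abundant genes in WT IQ3pos on average and at the top in R122C IQ3neg.

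By the root mean square difference between profiles over the 10 libraries, each centred on its mean, Gkn1 and Gkn2 were among each other's nearest 3 genes of 17155, at 0.21, as were Tff1 and Tff2, at 0.20. The other genes nearest to Gkn1 were Akr1c14 at 0.16 and Fam136a at 0.17. Those nearest to Gkn2 were Mucl3, a mucin-like gene of the pit marker list, and Sptssb, both at 0.23. Lgals2, a galectin, was the nearest to Tff2 at 0.15 and the second nearest to Tff1 at 0.19, after the antisense gene Gm15318 at 0.02. Sptssb was also near Tff2, at 0.19. By contrast Gkn3 was 1.45 from Gkn1, and its nearest genes, Rtn4ip1, Macrod1 and Oaz3, were 0.43, 0.49 and 0.51 away. The genes nearest to Tff3 were Cblif, the intrinsic factor gene, at 0.53, Bex2 at 0.57 and Trp53inp1 at 0.61.

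Trefoil factors are known to accompany mucins. Muc5ac, the pit cell mucin, stood at 8.79, 9.36 and 10.03 in WT IQ3pos and 5.24, 7.35 and 8.32 in WT IQ3neg, a difference of 2.43 ± 0.667 that did not pass (adjusted p = 0.0859). Muc6, the neck cell mucin, stood at 8.51, 8.61 and 9.80 against 8.00, 9.79 and 10.32 (difference -0.40, adjusted p = 0.750). None of the 9 tested of 12 partner genes passed in WT, R122C or the average (WT median 0.34, beside 0.16 over all genes), and the receptor Cxcr4 was listed at 0 in 9 of 10 libraries.

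Of 9 tested pit markers, Gsta1, a glutathione transferase, was higher in WT IQ3pos (2.71, adjusted p = 0.0261), and the list median was 1.11. Averaged over the genotypes, Gsta1 (2.17, adjusted p = 0.0151) and Mucl3 (1.87, adjusted p = 0.0394) were higher and Psca, a surface antigen gene, was lower (-1.46, adjusted p = 0.0305). None of the 5 neck markers passed in either genotype (WT median 0.00). In WT, Cftr was listed at 0 in every library, and the abundant Agr2 and Muc6 differed by 1.11 and -0.40. The median therefore does not show that neck cell content was equal. Of 5 tested chief cell markers, Cblif (-3.62, adjusted p = 0.00273) and the lipase-related Pnliprp1 (-5.88, adjusted p = 0.00141) were lower in WT IQ3pos. The 6 parietal markers and the 4 tested antral markers had none that passed. Of the 6 tuft markers Trpm5 was lower (-4.79, adjusted p = 0.0389). Of the 9 enteroendocrine markers 8 were lower, and of the 6 dividing-cell markers 5 were higher. Of the 8 tested genes of the pancreatic acinar list 5 were lower. In the average over genotypes, 4 chief, 3 tuft, 9 enteroendocrine and 6 acinar-list genes were lower and 5 dividing-cell genes higher. Of all genes, 2.57% passed as lower and 1.67% as higher in that average. No immune, fibroblast or defining epithelial marker passed.

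Among relatives by protein domain, none of the 4 tested of 7 other BRICHOS genes passed in WT, and Itm2c was lower averaged over the genotypes (-2.19, adjusted p = 0.0343). Of 3 tested genes with a trefoil domain other than the members, Gaa, the lysosomal alpha-glucosidase, was lower in WT IQ3pos (-3.55, adjusted p = 0.0465), where it was listed at 0 in 2 of 3 libraries. Of 20 transcription regulators 18 were tested and none passed in any comparison, with a WT median of 0.32. Runx3 was listed at 0 in 8 of 10 libraries, the exceptions being WT IQ3neg replicates 2 and 3. Gata6 and Gata4, known regulators of stomach epithelium, stood at 2.62 to 5.49 and 3.32 to 5.39 over the 10 libraries, lowest in WT IQ3neg replicate 1 for both. Between genotypes no gene of any of these lists passed.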

How the data were processed

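RNA of sorted corpus epithelial cells was amplified, made into libraries and sequenced at BGI, per the labels' protocols. The submitters' processing notes name edgeR, featureCounts, Subread 2.0.0, STAR 2.7.1a and the build GRCm38 (mm10). The sources used here give neither strandedness nor how libraries were scaled. The authors deposited log2 CPM values of 55276 genes. No pseudocount is in the deposited log2 values, which list every gene below 1 CPM at 0. CPM values were whole multiples of 1 step within 0.05 read, which gave the divisor behind each library's CPM, 47.4 M to 265 M reads. In every library the listed genes summed to more than this divisor, so it is not the total of the reads counted. The reads come from PCR with no molecular identifiers named, so read numbers speak to counting error alone.

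Groups came from the titles and characteristics. limma 3.58.1 (R 4.3.3) was fitted with 4 group means to all 10 libraries, with an intensity trend in the moderation (residual degrees of freedom 6, prior 6.01). P-values are two-sided, adjusted by Benjamini-Hochberg over the 17155 genes that 2 or more libraries listed above 0. Intervals are at 95%. Ratios were tested by exact permutation of libraries within genotype (120 arrangements). Scripts were tested on simulated data. Exon lengths and coordinates came from GENCODE M21 and promoters from RefSeq, which gave the gastrokine genes.

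All 6 members were named, with the 3 genes nearest to each, and Muc5ac and Muc6 always. Of the list genes that passed, some were named and some given only as counts, not for every comparison. Other genes were named after their values were seen. The members and lists were chosen with earlier results of these data known. Alternatives covered filters, pseudocounts, scaling, blocks, the trend and libraries left out. A fit without a library re-applied the filter to the libraries left. A second version that held the genes tested was added after the first had been seen, and both are given.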

Additional observations from a re-analysis of the deposited data

How the results depend on the processing

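The counts of members past the threshold were 4 in WT, 5 averaged over the genotypes and 0 in the other comparisons. In WT 1 member passed, Tff3, with genes above the listed 0 in at least 1 library, with only the 2 groups compared, with no intensity trend, and without both WT replicate 1 libraries. In the average 1 member, Tff3, passed with the first and the third of these. Leaving out 1 library at a time gave 0 to 5 in WT and 1 to 5 in the average, and 0 in the rest. Holding the genes tested at 17155 when a library was left out, an alternative chosen after seeing the data, gave the same ranges, but Gkn1 in WT then passed in 1 of 10 fits in place of 3 and Tff3 in 8 in place of 9, and in the average Gkn1 and Tff1 passed in 3 in place of 4 and Tff2 in 2 in place of 3. With the held genes, limma had to offset some variances of 0. Differences that turned sign were all of values that had not passed. With the title code as a term, R122C minus WT in IQ3pos was -0.38 for Tff1 and -0.55 for Tff2, and without both WT replicate 1 libraries it was -0.0185 for Tff2. The Gkn3 interaction was 0.13 with each library centred on its median and 0.16 without both WT replicate 1 libraries. Without 1 library at a time, Gkn3 ran from -1.07 to 0.21 between fractions in WT, from -0.999 to 0.124 in R122C and from -0.65 to 0.63 in the interaction. With the genes held, its values of turned sign included 0.12 in WT without WT IQ3pos replicate 1, and in the interaction 0.60 without WT IQ3pos replicate 2 and 0.48 without R122C IQ3neg replicate 2. R122C minus WT in IQ3pos then ran from -0.225 to 0.0377 for Gkn1, from -0.0890 to 0.656 for Tff1, from -0.26 to 0.45 for Tff2 and from -0.11 to 1.03 for Tff3. Among the ratios, Gkn2 to Gkn1 ran from -0.125 to 0.0083, Tff1 to Gkn1 from -0.0540 to 0.266 and Tff2 to Tff1 from -0.144 to 0.0327, while Gkn3 to Tff2 stayed between -2.59 and -1.94 and Tff3 to Tff1 between -6.51 and -5.53. The cause of these changes was not tested.

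Of all genes, 348 passed in WT, 104 higher and 244 lower. The number was 191 with genes above the listed 0 in at least 1 library, 600 with at least 5, 143 with only the 2 groups, 79 to 455 with 1 library left out at a time, 539 rescaled without the pancreatic acinar genes (147 higher, 392 lower) and 699 with each library centred (167 higher, 532 lower), where the median of all genes moved from 0.16 to -0.16. WT Gkn1, Gkn2, Tff1 and Tff3 passed under both rescalings (Gkn1 adjusted p = 0.024 and 0.0254, Tff2 0.0518 and 0.0564, by limma). In R122C the number was 55, and 87 with each library centred, 146 with no intensity trend, 31 with the replicate block, 105 without both WT replicate 1 libraries and 14 with only the 2 groups. With 1 library left out it was 2 to 73, with 2 and 5 without R122C IQ3neg replicates 1 and 2. Averaged, it was 727, and 470 with genes above the listed 0 in at least 1 library, 1263 without both WT replicate 1 libraries and 209 (without R122C IQ3neg replicate 1) to 1164 (without WT IQ3neg replicate 1) with 1 library left out. In R122C against WT in IQ3pos it was 0, and 7 with only the 2 groups or with no intensity trend, none of them a member. In WT the replicate block gave 364 (189 higher, 175 lower), and with it WT Tff2 also passed (adjusted p = 0.0371 by limma). The block moved no other member across the threshold. The same fractions' libraries with the same number deviated together at r = 0.162, 0.115 and 0.0808 in WT and 0.105 in R122C, not all over 0.1, so the numbers were not taken to pair the libraries. Each WT library did correlate best with its own number, a hint from the data. The block with the acinar rescaling, chosen after seeing the data, gave 464 genes (199 higher, 265 lower). Groups of 2 or 3 limit what can be detected between genotypes.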

Other observations

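Of the protein-coding neighbours nearest to the clusters, chosen after their values were seen, Antxr1 (9829 bases from the gastrokine cluster) was listed at 0 in 8 of 10 libraries and Bmp10 (40059 bases away) in all 10. Abcg1, a lipid transporter gene 7318 bases from the trefoil cluster, stood at 6.54, 1.92 and 3.04 log2 CPM in WT IQ3pos and 7.99, 8.21 and 7.24 in WT IQ3neg, and at 3.85 and 4.40 in R122C IQ3pos and 6.98 and 6.92 in R122C IQ3neg. Tmprss3, 13988 bases away on the other side, was at most 2.44 in any library. Abcg1 was thus lower in every IQ3pos library than in every IQ3neg library, as Tff3 was. Tff1 and Tff2, in the same cluster as Tff3, were higher. Such separation was common: the fractions did not overlap for 21.3% of all genes in WT and 36.3% in R122C, in either direction. The share of all genes that separated over both genotypes together is not given here. Whether the position of Abcg1 near Tff3 had a part in its levels was not tested.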
